A study of Homo sapiens with 32 samples.

Results

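Narrow start-site clusters are the regions of at most 60 bp in a table of transcription start sites of LNCaP cells, a human prostate cancer line that responds to androgen. Width was the end of a cluster minus its start, and clusters on the mitochondrial chromosome were left out. The rule found 2841 narrow clusters among 19534, or 14.54%, and the 16693 others are the clusters over 60 bp together with 67 on the mitochondrial chromosome. The narrow clusters had a median width of 36 bp (quartiles 24 and 47 bp), and 13 of them were 1 bp wide. There were 1489 on the plus strand and 1352 on the minus strand.

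Cap analysis of gene expression (CAGE) captures the capped 5′ ends of RNAs and counts a tag for each, so that a cluster of tags marks where transcription begins. Sharp clusters, with start sites packed into a short stretch, are known from promoters with a TATA box and from tissue-restricted and hormone-induced genes. Broad clusters are known from CpG-island promoters of genes that most cells use. The androgen receptor is a transcription factor that binds an androgen such as dihydrotestosterone (DHT) or the synthetic agonist R1881 and then binds DNA near its target genes. Bicalutamide is an antagonist that competes for the same receptor. The width of a cluster is also a matter of counting, because few tags can only cover few positions.

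In the R1881 experiment LNCaP cells were collected at 0, 3, 6, 12, 18, 48 and 72 h of R1881, with 2 replicate libraries per time. The treatment label of these libraries gives 1 nM and the shared protocol gives 10 nM over 24 h, and the dose is therefore not known. No vehicle library was sampled after 0 h, and R1881 and time in culture therefore cannot be told apart in this series. In the second experiment LNCaP and BicR (a second line, given in the labels by this name alone) received ethanol (the vehicle), 10 nM DHT, 1 µM bicalutamide or both drugs for 6 and 24 h. It has 1 library for each line, treatment and time, plus an untreated 0 h library of each line. All cells had first spent 3 days in medium with charcoal-stripped serum, which is low in hormones. The labels do not say whether replicates were separate cultures, so p-values measure the spread between these libraries, which may be technical. Gene names are not paired with the clusters in the tables used here, so clusters are given by position on the hg19 build, counted from 1, and marker genes of the cell type could not be looked up.

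The R1881 libraries held 128463 to 3837493 tags in the table, and the second experiment's held 4139807 to 7753336. The 18 h and 6 h libraries of replicate 1 were the shallowest, and there a single tag was worth 6.48 and 5.70 RPM (tag counts scaled by the library total, as deposited). Both libraries of 6 h and of 18 h stand apart: their median correlation with the other R1881 libraries was 0.665 to 0.76, against 0.791 to 0.837 for the remaining 10. In BicR the 6 h library of both drugs stands apart from the other BicR libraries at sites given further on. Replicates tracked each other less well at narrow clusters than elsewhere. Across 1220 narrow clusters, Pearson's r of log2 CPM (tags scaled to equal library size) between the replicates ran from 0.234 at 18 h to 0.812 at 72 h, against 0.663 and 0.898 over 14779 other clusters. These are correlations across clusters that share a library and its depth, and clusters are not independent replicates.

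Narrow clusters were mostly weak, and a few were among the stronger start sites of the cell. The median over clusters of the mean RPM in the 14 R1881 libraries was 2.54 (quartiles 1.39 and 5.25) for narrow clusters and 13.07 (5.56 and 35.1) for the others. A mean of at least 10 RPM was reached by 349 narrow clusters, 12.28% of them, against 57.28% of the others, and 26 reached 100 RPM. The level increased with width within the narrow set. The median was 0.964 RPM at 1 to 10 bp, 1.87 RPM at 21 to 30 bp and 4.24 RPM at 51 to 60 bp, and it went on to 25.04 RPM in clusters over 200 bp. At the limit itself there was no step. The 114 clusters of 59 or 60 bp had a median of 4.71 RPM, and the 116 clusters of 61 or 62 bp had 4.90 RPM.

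**Figure D1:**
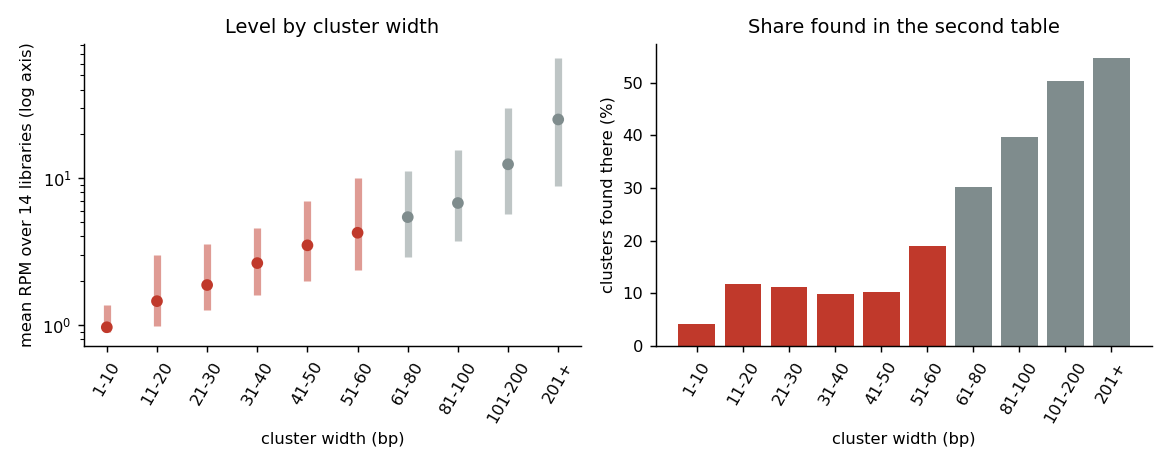
Left, median mean RPM over the 14 R1881 libraries by cluster width in bp (log axis, dots, with bars from the lower to the upper quartile); right, the percent of clusters of each width whose name is also in the second table. Narrow clusters are red and the others grey, and both quantities are lower at 1 to 10 bp (0.964 RPM, 4.17%) than in clusters over 200 bp (25.04 RPM, 54.6%).

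Much of the low end rested on the shallowest libraries. Of 2840 narrow clusters with any tag, 2115 (74.47%) had their highest RPM in replicate 1 of 18 h (1344 clusters) or of 6 h (771 clusters), and in 1353 of these that peak was 1 or 2 tags. The share was 23.43% among the other clusters. Outside those 2 libraries 1807 narrow clusters (63.63%) stayed below 10 RPM, against 13.76% of the others. At most 20 tags in all 14 libraries together were held by 1247 narrow clusters (43.91%) and by 1.86% of the others. Without the 4 shallowest libraries the median level of narrow clusters was 1.01 RPM, and among those that reached 10 RPM outside the 2 shallowest libraries it was 6.82 RPM. The part of depth in how these clusters came to be listed was not tested.

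The 6 narrow clusters with the highest mean level were 36 to 53 bp wide and each exceeded 200 RPM in all 14 R1881 libraries. The highest lay at chr6:153603873-153603919 on the minus strand, where the libraries ran from 449 RPM (72 h, replicate 1) to 1908 RPM (6 h, replicate 2). The second, at chr2:38708896-38708942 on the plus strand, ran from 324 RPM (18 h, replicate 1) to 1945 RPM (6 h, replicate 2). The others were chr17:19350176-19350211 (minus strand, 283 to 1237 RPM), chr11:67450534-67450586 (minus, 254 to 1092 RPM), chr5:168043290-168043328 (plus, 280 to 1324 RPM) and chr17:17287351-17287402 (minus, 235 to 1013 RPM). At chr2:38708896-38708942 all libraries of replicate 2 lay above all of replicate 1. At chr5:168043290-168043328 the order was the opposite, with 629 to 1324 RPM in replicate 1 and 280 to 462 RPM in replicate 2 over the same 7 times. None of the 6 passed the test at any time, late against early, with DHT or between lines. At 72 h their log2 changes were between -1.04 and -0.44, with adjusted p from 0.387 to 0.841 (edgeR's quasi-likelihood test, Benjamini-Hochberg adjustment over all clusters tested). Of the 6, 5 were listed in the second table. The cluster at chr2:38708896-38708942 held 2060 and 1882 RPM at 6 and 24 h of ethanol in LNCaP and 1736 and 2112 RPM in BicR, a log2 difference of 0.03 with a standard error (SE) of 0.129.

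Fewer narrow clusters than others had a close neighbour in the list. Another cluster on the same strand lay within 1000 bp of 228 narrow clusters (8.03%), against 24.7% of the others, and within 10000 bp of 16.44% against 38.05%. On the opposite strand a cluster lay within 1000 bp of 20.66% and 32.59%. The gap on the same strand was also there among strong clusters, since at a mean of 32 RPM or more it was 2.11% of 95 narrow clusters against 21.19% of 4550 others. The gap on the opposite strand was not, with 30.53% against 33.05% at that level. Relative to the cluster's own width, the position that names it lay further from the 5′ edge in narrow clusters, at a median fraction of 0.667 against 0.477. In bases, a median of 21 bp lay upstream and 10 bp downstream of it inside the cluster, against 69 and 76 bp in the others. By chromosome, the narrow share was 6.19% on chromosome 19, 7.45% on chromosome 16 and 22.76% on chromosome X. These are descriptions of the cluster list, with no test.

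As a share of each library, narrow clusters took most tags in replicate 1 of 18 h and of 6 h, the shallowest libraries, and least at 48 and 72 h. In order of time, from 0 to 72 h, replicate 1 gave 2.61, 2.69, 4.57, 3.13, 5.75, 2.09 and 1.85%. Replicate 2 gave 2.34, 2.44, 2.96, 2.15, 2.56, 1.85 and 1.63%. All 4 libraries of 48 and 72 h lay below all others, at 1.86% ± 0.188 (SD, n = 4) against 3.17% ± 0.959 (SD, n = 4) at 3 and 6 h and 3.40% ± 1.62 (SD, n = 4) at 12 and 18 h. Without the 6 strongest clusters the late libraries ran from 1.25% to 1.62% and those of 3 and 6 h from 1.74% to 4.07%. Those of 12 and 18 h then ran from 1.53% to 5.43%. The late libraries thus no longer lay below all others, since 12 h replicate 2 (1.53%) was below 48 h replicate 1 (1.62%). The 95% binomial (Wilson) interval was widest at 18 h in replicate 1, from 5.63% to 5.88%, and such intervals cover counting error only. In bulk libraries fewer transcribing cells and fewer tags per cell cannot be told apart. In the second table the share ran from 1.78% to 2.26% over all 18 libraries, with 2.03% ± 0.111 (SD, n = 9) in LNCaP and 1.88% ± 0.0871 (SD, n = 9) in BicR.

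**Figure D2:**
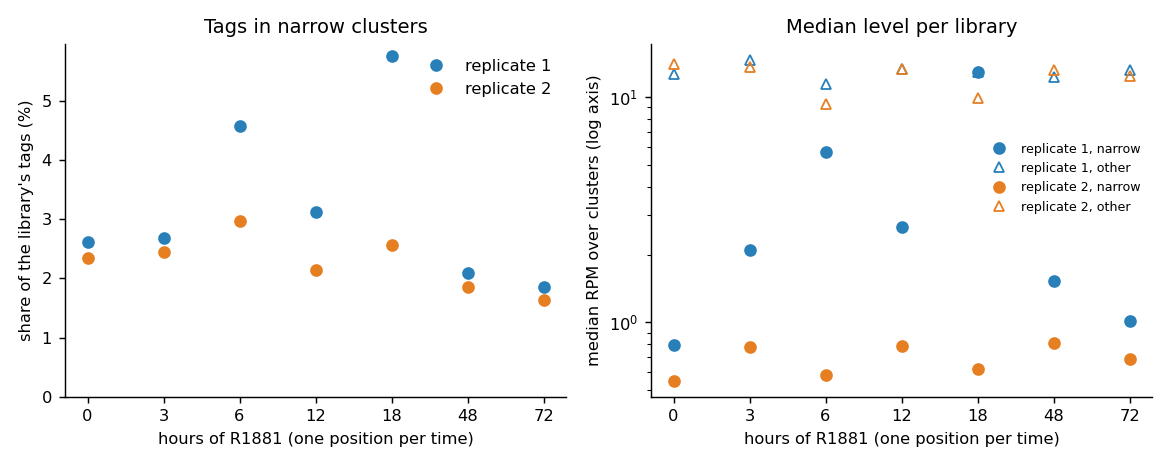
Left, percent of each R1881 library's tags in narrow clusters by hours of R1881 (dots, 1 library each, coloured by replicate); right, the median RPM over narrow clusters (filled) and over the others (open) in each library, on a log axis. Replicate 1 reaches 4.57% and 5.75% at 6 and 18 h, its shallowest libraries, and the 4 libraries of 48 and 72 h lie lowest at 1.63% to 2.09%.

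The first comparison asked which start sites changed at each time of R1881 against 0 h. A filter on low counts passed 1220 of the 2841 narrow clusters, among 15999 clusters tested, and 1621 were not tested, including the cluster with 0 tags in every library. At 3 h and at 6 h edgeR called 0 narrow clusters at an adjusted p of at most 0.05, where the background of all clusters tested was also 0%. At an unadjusted p under 0.05 there were 16 narrow clusters at 3 h (1.31%, against 1.68% of all) and 145 at 6 h (11.9%, against 15.3%). DESeq2 called 1 and 3 narrow clusters, among 8 and 75 of all. At 12 h 1 narrow cluster was higher, against 0.231% called of all clusters. This cluster, 48 bp wide on chromosome 11 and named here after its values were seen, had no tag at 0 h in either replicate. From 3 h on replicate 1 held 6.25, 5.70, 29.2, 12.96, 1.53 and 7.10 RPM, and replicate 2 held 22.1, 63.0, 29.9, 37.3, 2.96 and 1.84 RPM. The rise was at least 18.5-fold at 12 h, against a floor of 3 tags in each 0 h library (adjusted p = 0.0369 by edgeR), and it also passed at 18 h (adjusted p = 0.0234). At 18 h 7 were higher (background 0.713%) and 1 was lower (background 0.275%), or 0.656% of those tested against 0.988% of all. The median log2 change of tested narrow clusters was 0.67 at 6 h and 0.91 at 18 h, while that of all clusters was -0.03 and -0.11. Of the 1220 tested, 924 reached 10 RPM in a library other than replicate 1 of 6 h and 18 h. The rest could pass the filter through those libraries, so the medians at 6 and 18 h are partly set by it. Without the 4 shallowest libraries (replicate 1 of 3, 6, 12 and 18 h) the narrow medians turned to -0.20 at 6 h and -0.15 at 18 h. That fit leaves replicate 2 alone at each of these 4 times, and at 6 and 18 h replicate 2 stands apart too. Calls at these times would rest on 1 library each and are not given. Replicate numbers were taken to pair the libraries, though replicate 1 was also the shallower at every time. With the replicate as a block the narrow calls were 4 at 3 h, all higher (background 0.288%). At 6 h they were 78 (6.61%), of which 58 were higher (2.84%) and 20 lower (3.78%). At 12 h they were 12 (1.98%), of which 9 were higher (1.64%) and 3 lower (0.331%). At 18 h they were 179 (13%), of which 131 were higher (6.39%) and 48 lower (6.63%). As shares of the narrow clusters tested, the calls with the block were 0.328, 6.39, 0.984 and 14.7% at 3, 6, 12 and 18 h. At 3 and 18 h these are above the share of all clusters, and at 6 and 12 h below it. DESeq2 without the block also gave a larger narrow share at 18 h, 3.85% against 2.98% of all. In the next fits, each with 1 library left in a group, the share of all clusters called moved with the narrow count. Without 6 h replicate 1 the count at 6 h was 7. Leaving out any library of 0 h or 12 h removed the call at 12 h. The count at 18 h became 0 without either 0 h library and 2 without 18 h replicate 2.

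At 48 h 2 narrow clusters were higher (background 1.39%) and 4 were lower (0.494%), and at 72 h 4 were higher (1.51%) and 5 were lower (0.988%). These are 0.492% and 0.738% of the narrow clusters tested, against 1.89% and 2.5% of all clusters, and 5 clusters passed at both times. Among strong clusters, of at least 32 CPM, 2 of 109 narrow clusters (1.83%) and 3.04% of 5460 others passed at 72 h. The median log2 change of tested narrow clusters was -0.06 at 48 h and -0.21 at 72 h, against -0.02 and 0.01 for all clusters. With the replicate block the counts were 38 at 48 h (background 8.54%) and 69 at 72 h (12.2%). Of the former 23 were higher (4.96%) and 15 lower (3.58%), and of the latter 27 were higher (6.28%) and 42 lower (5.89%). Against the fit without the block, leaving out 1 library of a group lowered these counts and also the share of all clusters called. Without 0 h replicate 1 they were 0 and 3, without 0 h replicate 2 they were 2 and 4, without either 48 h library the first was 1, and without 72 h replicate 2 the second was 2. Without the 4 shallowest libraries, none of them from 0, 48 or 72 h, they were 11 and 27, or 1.05% and 2.58% against 3.05% and 4.93% of all clusters. Without replicate 2 of 6 and 18 h they were 13 and 27, or 0.819% and 1.7% against 3.68% and 5.52% of all.

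The steepest falls at 48 h were at a pair of narrow clusters on the minus strand of chromosome 10, whose starts are 246173 bp apart. At chr10:55036028-55036052, 25 bp wide, replicate 1 held 156.7, 95.9, 57.0, 13.3, 6.48, 0 and 1.01 RPM from 0 to 72 h. Replicate 2 held 45.5, 20.2, 15.2, 1.57, 0.621, 0 and 0 RPM. Both replicates thus lost tags from 0 h on, and the 0 h and late libraries did not overlap. The fall at 48 h was at least 37.5-fold, setting the 0 h mean against a floor of 3 tags in each 48 h library (fitted log2 change -10.39, SE 1.79, adjusted p = 0.0106 by edgeR). Fitted changes of sites with libraries at 0 depend on the prior count and are no bound. At 72 h, with 1 tag, the pooled ratio was 395-fold (95% counting interval 70.5 to 15650) and the adjusted p 0.00975. The nearest cluster on its strand, 143 bp wide with a mean of 1.82 RPM, is named 128 bp away and was too low to be tested. Without 0 h replicate 1, 48 h replicate 1 or 48 h replicate 2 the adjusted p at 48 h was 0.0549, 0.0578 and 0.157.

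The other cluster of the pair, chr10:54789855-54789901, 47 bp wide, followed the same course at a lower level. Replicate 1 held 57.8, 54.2, 11.4, 10.6, 0, 0 and 0 RPM from 0 to 72 h. Replicate 2 held 18.7, 13.6, 4.08, 5.11, 0.621, 0 and 0 RPM. Its fall was at least 14.2-fold at 48 h (log2 change -8.98, SE 1.43, adjusted p = 0.00835 by edgeR) and at least 20.5-fold at 72 h (adjusted p = 0.00527). Without 0 h replicate 1 or 48 h replicate 2 the adjusted p at 48 h was 0.0548 and 0.152. A cluster of 55 bp on chromosome 1 and a cluster of 28 bp on chromosome 19 were the other narrow falls at 48 h. The latter went from 42.7 and 36.4 RPM at 0 h to 3.06 and 1.61 RPM at 48 h (log2 change -4.21, SE 0.714, adjusted p = 0.00848), and it was already at 5.70 and 4.08 RPM at 6 h, where the test was passed with the replicate block (adjusted p = 0.0138) and not without it (0.142). With the block the chromosome 10 pair also passed from 12 h on. Without any 1 of the 4 libraries compared, both the chromosome 1 and the chromosome 19 falls at 48 h missed the threshold, with adjusted p from 0.0624 to 0.452 and from 0.0574 to 0.194. No narrow rise at 48 h met the rule for being printed.

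**Figure D3:**
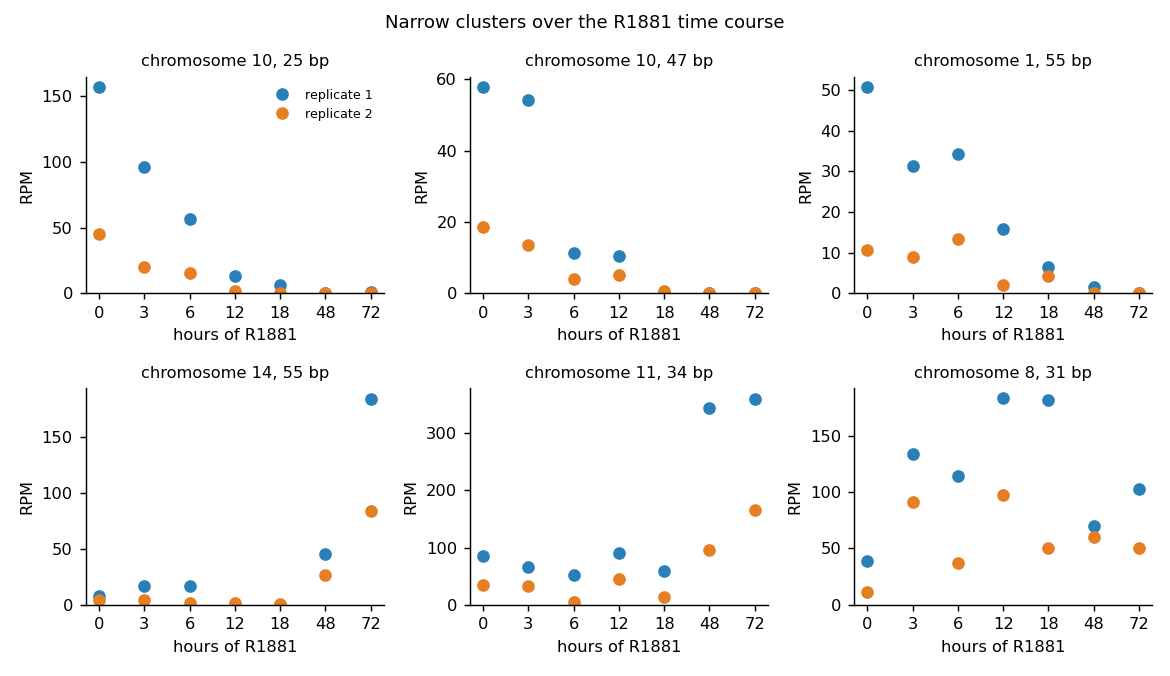
RPM of 6 narrow clusters in each R1881 library by hours of R1881 (1 position per time, dots coloured by replicate, linear axes from 0 that differ between panels). The 3 clusters of the upper row reach 0 to 1.53 RPM at 48 and 72 h, those on chromosomes 14 and 11 are highest at 72 h in each replicate, and the one on chromosome 8 is above its 0 h level of the same replicate at all later times.

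Late times were also set against early ones without the 0 h libraries, as the mean of 48 and 72 h against the mean of 3 and 6 h, with 4 libraries on each side. The filter passed 363 narrow clusters among 11193. Of these, 10 were higher late (background 3.26%) and 9 were lower (3.06%), or 5.23% against 6.32% of all clusters. The split moved with the processing, to 10 higher and 16 lower with the replicate block (background 4.18% and 4.14%), 11 and 24 by DESeq2, and 10 and 17 without replicate 2 of 6 and 18 h. At 32 CPM or more the shares were 6.93% of narrow clusters and 7.7% of the others. The median log2 change of tested narrow clusters was -0.54, against -0.03 for all clusters, and 25.9% of narrow clusters were above 0. Without the 4 shallowest libraries, which include replicate 1 of 3 and 6 h, that median was -0.09 and the calls numbered 46, with 14 higher and 32 lower, which is 6.63% of the narrow clusters then tested and 6.61% of all. Leaving out 48 h replicate 1 gave 12 calls (2.2%, against 3.89% of all). Leaving out 3 h replicate 2 or 72 h replicate 2 gave 9 (2.75% and 2.63%, against 3.52% and 3.09% of all).

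**Figure D4:**
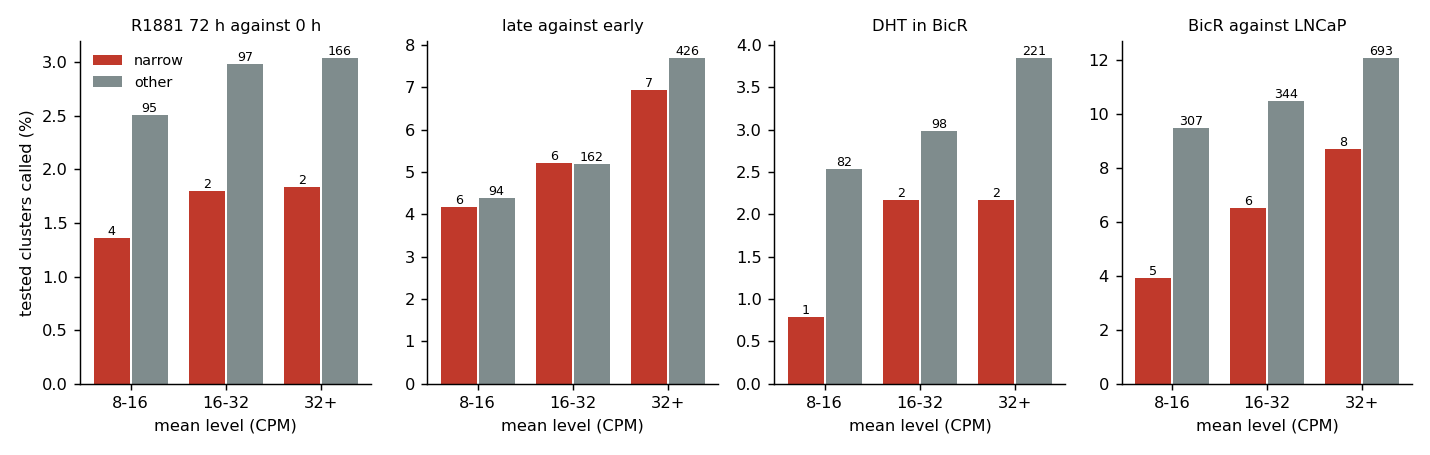
Percent of tested clusters that passed an adjusted p of at most 0.05, by mean level in CPM, for narrow clusters (red) and the others (grey) in 4 comparisons, with the number called above each bar. In the 3 bins drawn, from 8 CPM up, the narrow share is below that of the others at 72 h, with DHT in BicR and between the lines, and close to it late against early (4.17% and 4.38% at 8 to 16 CPM); the bins hold at most 8 narrow calls and the differences were not tested.

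The 10 late risers had log2 changes from 2.16 to 3.55, widths of 15 to 58 bp and mean levels of 4.81 to 171 RPM. They lay on 10 different chromosomes. The 4 late libraries lay above the 4 early ones in all 10, which were chosen by this contrast. Over all narrow clusters tested this was so for 15 of 363 (4.13%), against 9.43% of all clusters. Against 0 h the risers' median log2 changes, from 3 to 72 h, were -0.01, -1.30, -0.09, -1.03, 1.89 and 2.52. At the last time 3 of the 10 passed (background 1.51%), or all 10 with the replicate block (6.28%). The libraries of 3, 6, 48 and 72 h also chose this list, so the changes and calls at these times are not independent of it. Replicate 1 was above replicate 2 at 48 h in all 10. The nearest cluster on the same strand was tested in 8 cases. It passed the same way in 1 case and the opposite way in 1, and its median log2 change was 0.15. Most of these neighbours were far off, since over the 10 risers they lay 560 to 643672 bp away, with 1 within 1000 bp. That close one, on chromosome 20, was the one that passed the same way (log2 change 2.19, adjusted p = 0.0123 by edgeR).

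The largest rise was at chr14:102027785-102027839 on the plus strand, 55 bp wide. Replicate 1 held 7.91, 16.7, 17.1, 0, 0, 45.9 and 184.6 RPM from 0 to 72 h. Replicate 2 held 4.68, 4.65, 1.75, 1.97, 0.621, 26.4 and 84.0 RPM. In each replicate the level at 18 h was the lowest or tied for it and the level at 72 h the highest, and the log2 change late against early was 3.55 (SE 0.733, adjusted p = 0.0129 by edgeR). The next among clusters with a mean of at least 10 RPM was chr11:77446267-77446300 on the minus strand, 34 bp wide. Replicate 1 held 84.7, 66.7, 51.3, 90.4, 58.3, 343.9 and 360.1 RPM in order of time, and replicate 2 held 34.2, 33.3, 5.25, 44.8, 13.7, 96.0 and 166.0 RPM. Its log2 change was 2.72 (SE 0.607, adjusted p = 0.0183). Below that level 2 weaker clusters, named here after their values were seen, had larger log2 changes, a 15 bp cluster on chromosome 4 (2.86, adjusted p = 0.0166) and a 24 bp cluster on chromosome 8 (2.76, adjusted p = 0.0325). The cluster nearest to chr11:77446267-77446300 on its strand, 181 bp wide and named 85491 bp away, was lower late (log2 change -1.69, adjusted p = 0.0334). Without 3 h replicate 2 the adjusted p was 0.0591 at chr14:102027785-102027839 and 0.0642 at chr11:77446267-77446300. The other named risers were a 57 bp cluster on chromosome X (log2 change 2.65, adjusted p = 0.0108) and a 30 bp cluster on chromosome 13 (2.45, adjusted p = 0.0394). The latter lost the call without 3 h replicate 2 or without replicate 1 of 6, 48 or 72 h, with adjusted p from 0.0651 to 0.116.

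The 9 late falls ran from -7.93 to -1.24 on the log2 scale and were 19 to 59 bp wide. The late libraries lay below the early ones in all 9, again chosen by this contrast. Over all narrow clusters tested this was so for 23 of 363 (6.34%), against 5.54% of all clusters. The first was again chr10:55036028-55036052, with 1 tag in the 4 late libraries, a pooled ratio of 263-fold (95% counting interval 46.4 to 10450) and an adjusted p of 0.00061. The second was chr1:20306094-20306148 on the minus strand, 55 bp wide. Replicate 1 held 50.6, 31.3, 34.2, 15.95, 6.48, 1.53 and 0 RPM from 0 to 72 h. Replicate 2 held 10.7, 8.92, 13.4, 1.97, 4.35, 0 and 0 RPM. The late libraries held 1 tag in all, with a pooled ratio of 131-fold (22.8 to 5264, adjusted p = 0.00126 by edgeR). A cluster of 124 bp named 816 bp away on the same strand had log2 changes of -4.33 at 48 h (adjusted p = 0.0788) and -5.33 at 72 h (adjusted p = 0.0348). The other named falls were a 51 bp cluster on chromosome 6 (log2 change -3.33, adjusted p = 0.0229) and a 49 bp cluster on chromosome 12 (-2.16, adjusted p = 0.0161). The chromosome 6 cluster held 2128 RPM at 6 h in replicate 2, a library that stands apart, and 125.4 RPM in replicate 1, and without 6 h replicate 2 its log2 change was -1.89. It lost the call without any 1 late library (adjusted p from 0.0565 to 0.0784), and the chromosome 12 cluster without replicate 2 of 48 h (0.058) or of 72 h (0.0685).

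In the second experiment 337 narrow clusters (11.86%) had their name in the table, against 49.19% of the others, and 2504 did not. At a mean of 32 RPM or more the shares were 57.89% and 74.07%. The 337 were the stronger part of the narrow set, with a median of 9.63 RPM in the R1881 libraries against 2.22 RPM for those not listed. In the second table itself their median was 14.7 RPM, against 22.4 RPM for the other positions. That table lists single positions and was normalised separately, so a level in it cannot be set against a level in the R1881 table. The test treated the 6 and 24 h libraries of a treatment as its replicates, with a term for time in each line.

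DHT against ethanol asked which sites responded to the natural androgen. In LNCaP 1 of the 337 narrow clusters was higher (background 0.12%) and 0 were lower (0.00752%), with 0.128% of all positions called. In BicR 4 were higher (2.21%) and 2 were lower (1.17%), with 3.38% of all positions called. The same cluster passed in both lines. The response in BicR minus that in LNCaP was tested directly, and edgeR called 0 narrow clusters and 0% of all positions, with 13 narrow clusters at an unadjusted p under 0.05 and 0 calls by DESeq2. The median log2 change of narrow clusters was 0.02 in LNCaP and 0.03 in BicR, against -0.01 for all positions in each line. Leaving out 1 of the 4 libraries compared in a line lowered the share of all positions called there. The call in LNCaP was lost without any 1 of its 4 libraries, and the count in BicR was 3 without DHT at 24 h. Without the term for time the counts were 0 in LNCaP and 2 in BicR, and without the BicR library that stands apart the count in BicR was 10, or 2.97% against 5.72% of all positions.

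The cluster higher with DHT in both lines was chr8:23537624-23537654 on the minus strand, 31 bp wide. In LNCaP it held 8.90 RPM at 6 h and 10.5 RPM at 24 h with ethanol, and 93.2 and 67.2 RPM with DHT. In BicR it held 28.5 and 24.5 RPM with ethanol, and 213.8 and 194.2 RPM with DHT. DHT libraries were above ethanol libraries at each time in each line without overlap. The log2 change was 3.04 in LNCaP (SE 0.382, adjusted p = 0.0161) and 2.93 in BicR (SE 0.347, adjusted p = 0.00117), and the difference between lines was -0.12 (SE 0.502, adjusted p = 0.995), all by edgeR. When a LNCaP library was left out the adjusted p in LNCaP was between 0.0956 and 0.373, and in BicR the call held without each of its libraries. In the R1881 series the same cluster held 38.8 RPM in replicate 1 and 11.6 RPM in replicate 2 at 0 h. From 3 h on replicate 1 held 133.4, 114.0, 183.4, 181.5, 70.3 and 102.5 RPM, and replicate 2 held 91.1, 37.3, 97.5, 50.3, 59.96 and 50.7 RPM. Both replicates were above their own 0 h level at every later time. The log2 changes against 0 h were between 1.46 and 2.49, and none passed (adjusted p from 0.125 to 1). With the replicate block, which compares each library with the 0 h library of its own number, all 6 times passed. The blocked log2 changes ran from 1.66 (SE 0.459, adjusted p = 0.0361) at 6 h to 2.62 (SE 0.441, adjusted p = 0.00135) at 12 h. A cluster of 328 bp named 296 bp away on the same strand had a log2 change of 2.05 at 72 h, which did not pass either (adjusted p = 0.228).

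Among clusters with a mean of at least 10 RPM, the next rise in BicR was chr15:39873250-39873307 on the plus strand, 58 bp wide, with 12.9 and 12.98 RPM with ethanol and 73.5 and 32.5 RPM with DHT at 6 and 24 h (log2 change 1.89, SE 0.287, adjusted p = 0.00351). In LNCaP it held 9.79 and 10.7 RPM with ethanol and 25.3 and 19.3 RPM with DHT (log2 change 1.14, adjusted p = 0.369). In the R1881 series replicate 1 held 11.9, 54.2, 34.2, 26.6, 19.45, 6.11 and 6.09 RPM from 0 to 72 h, and replicate 2 held 1.10, 5.81, 2.92, 2.36, 1.86, 2.42 and 0.691 RPM. Replicate 1 was above replicate 2 at all 7 times. No time passed against 0 h (adjusted p from 0.775 to 1, and from 0.184 to 0.924 with the replicate block). A weaker cluster of 59 bp on chromosome 10, named here after its values were seen, had the largest log2 change with DHT in BicR (5.18, SE 0.937, adjusted p = 0.0119), from 0.26 and 0.268 RPM with ethanol to 7.55 and 13.3 RPM with DHT. In LNCaP it had no tag with ethanol and a mean of 0.83 RPM with DHT (log2 change 5.6, SE 2.24, adjusted p = 0.809). The difference in response was -0.42 (adjusted p = 0.977). It also passed at 18 h of R1881 (log2 change 5.54, adjusted p = 0.0449). The other named rise was a 20 bp cluster on chromosome 6 (log2 change 0.97, adjusted p = 0.015), whose call was lost without ethanol at 6 h or either DHT library (adjusted p from 0.0984 to 0.153). The largest fall was chr8:88257642-88257663 on the plus strand, 22 bp wide. It held 19.0 and 19.5 RPM with ethanol and 4.50 and 4.72 RPM with DHT in BicR (log2 change -2.09, SE 0.24, adjusted p = 0.00115). In LNCaP it held 26.4 and 18.1 RPM with ethanol and 16.6 and 12.0 RPM with DHT (log2 change -0.58, SE 0.203, adjusted p = 0.671), and the difference in response was -1.5 (SE 0.317, adjusted p = 0.626). It was not tested in the R1881 series, where it was at 0 in all 4 late libraries and at 3.17 and 13.2 RPM at 0 h.

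**Figure D5:**
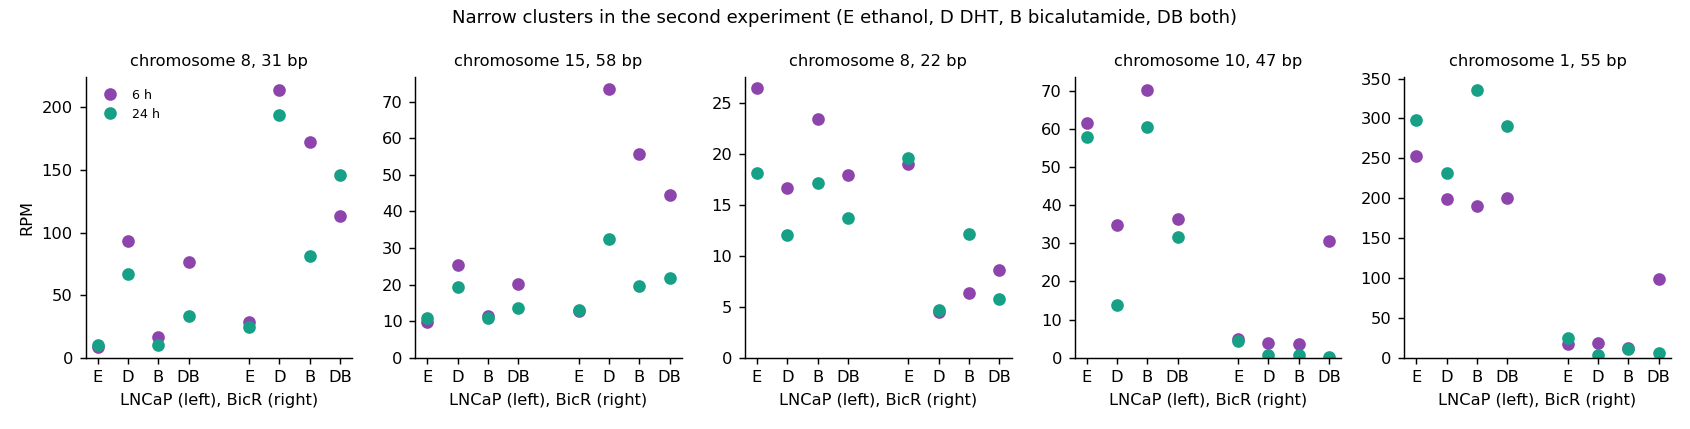
RPM of 5 narrow clusters in the treated libraries of the second experiment, LNCaP on the left and BicR on the right of each panel (dots, purple 6 h, green 24 h, linear axes from 0). DHT libraries lie above ethanol libraries for the 31 bp cluster of chromosome 8 in both lines, and the clusters on chromosomes 10 and 1 are lower in BicR, except that BicR with both drugs at 6 h holds 30.5 RPM on chromosome 10.

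The lines themselves were compared with ethanol, over both times. Of 337 narrow clusters 6 were higher in BicR (background 5.12%) and 13 were lower (5.88%), or 5.64% against 11% of all positions. At 32 CPM or more 8 narrow clusters (8.7%) passed, against 12.1% of the others. The median log2 difference was -0.08 against -0.01 for all positions. The count was 5 without LNCaP ethanol at 6 h, 7 without LNCaP ethanol at 24 h, 2 without BicR ethanol at 6 h and 12 without BicR ethanol at 24 h. These fits leave 1 ethanol library in a line, and fewer of all positions passed in them too. Without the term for time the count was 3, against 3.48% of all positions.

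The largest difference towards BicR was at chr9:137764473-137764493 on the minus strand, 21 bp wide, with 24.8 and 21.7 RPM in LNCaP and 60.2 and 64.8 RPM in BicR at 6 and 24 h of ethanol (log2 difference 1.5, SE 0.271, adjusted p = 0.00606). The next was chr8:23537624-23537654 (1.48, SE 0.396, adjusted p = 0.0338), the cluster that was higher with DHT in both lines. Without LNCaP ethanol at 24 h or BicR ethanol at 6 h the adjusted p of the first was 0.0952 and 0.0651, and the second lost its call without any 1 of the 4 libraries (0.055 to 0.284). Towards LNCaP the largest were chr10:54789855-54789901 and chr1:20306094-20306148, both among the steep falls of the R1881 series. The former held 61.5 and 57.8 RPM in LNCaP and 4.94 and 4.42 RPM in BicR (log2 difference -3.87, SE 0.671, adjusted p = 0.00498). The latter held 252.7 and 298.6 RPM in LNCaP and 17.0 and 25.03 RPM in BicR (-3.50, SE 0.669, adjusted p = 0.0078). Without BicR ethanol at 6 h their adjusted p was 0.294 and 0.0879. The BicR library that stands apart, both drugs at 6 h, held 30.5 and 98.2 RPM at these sites, while the untreated BicR library held 7.82 and 15.7 RPM and both drugs at 24 h gave 0.242 and 6.17 RPM. With DHT in LNCaP the former held 34.9 RPM at 6 h and 13.9 RPM at 24 h, a log2 change of -1.30 that did not pass (adjusted p = 0.803).

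Of the 10 late risers of the R1881 series, 9 were in the second table. Between the lines 4 of these were lower in BicR, where the background was 5.88%, and 5 did not pass. The log2 differences of the 9 ran from -1.92 to -0.81. Over all positions 49.5% were above 0. The cluster chr14:102027785-102027839 held 64.4 and 87.7 RPM with ethanol in LNCaP and 13.9 and 23.7 RPM in BicR (log2 difference -1.92, SE 0.335, adjusted p = 0.00507). At chr11:77446267-77446300 the values were 41.7 and 34.5 RPM in LNCaP and 17.0 and 18.9 RPM in BicR (-1.02, SE 0.256, adjusted p = 0.0269). Without BicR ethanol at 6 h the adjusted p values were 0.0671 and 0.231, and the second call was also lost without LNCaP ethanol at 6 h (0.221). With DHT in LNCaP the log2 changes of the 9 were between -0.05 and 0.47, and none passed. Of the 9 late falls 5 were in the second table, with log2 differences from -3.50 to 0.41 between the lines, and 1 passed. In all 47 narrow clusters passed in some comparison, 30 in the R1881 series and 24 in the second table, 7 of them in both, and 2794 passed in none.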

How the data were processed

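The deposited tables hold raw tag counts and RPM per CAGE library (cap trapping, HeliScope sequencing, per the labels' protocols), 14 libraries of the R1881 series and 18 of the second experiment. The authors' build was hg19, per the submitters' processing notes; the aligner and the cluster caller are not given in the sources used here. Levels are the authors' deposited RPM. Deposited counts were tested with edgeR 4.0.16 (R 4.3.3): filterByExpr with a minimum count of 10, TMM, quasi-likelihood F test, Benjamini-Hochberg over all clusters tested, and SE as the log2 change over the square root of F. The second fit used 16 treated libraries. DESeq2 1.42.0 was an alternative. The tests were run on simulated counts, with changes set in well-covered clusters alone, the same spread for all clusters and no replicate effect. That check does not cover weak narrow clusters or libraries that deviate together. Named were the 6 highest levels and, at a mean of at least 10 RPM, the largest calls each way per comparison; at most 2 each way are printed by position. Members, lists and tests were chosen with earlier results of these data known. Same-numbered libraries deviated together in 21 of 21 pairs of times (r 0.142 to 0.566), and the block takes the numbers as pairs. Replicate 1 was the shallower library at every time, so pairing and depth cannot be told apart here. Gene lists could not be applied and no sequence is shown, because the tables used here for this build do not pair positions with names.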

Additional observations from a re-analysis of the deposited data

Results flagged for a closer look

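At chr10:55036028-55036052 1 of the 4 late libraries (72 h, replicate 1) held 1.01 RPM, which is 1 tag, and the others held 0, so that its gap to the rest was the whole range of the group (ratio 1). At chr1:20306094-20306148 the same was found for 48 h replicate 1, with 1.53 RPM, again 1 tag, and a ratio of 1. With 3 libraries at 0 any tag in the fourth gives this ratio.

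Bicalutamide alone lay outside the comparisons above. In BicR 1 of 337 narrow clusters passed against ethanol by edgeR, with 0.196% of all positions called, and in LNCaP 0 passed, with 0.00752% of all positions called and 19 narrow clusters at an unadjusted p under 0.05. The cluster was chr8:23537624-23537654, with 172.0 RPM at 6 h and 81.6 RPM at 24 h of bicalutamide in BicR against 28.5 and 24.5 RPM with ethanol (log2 change 2.30, SE 0.344, adjusted p = 0.0271). In LNCaP it held 16.8 and 10.1 RPM with bicalutamide against 8.90 and 10.5 RPM with ethanol (log2 change 0.45, SE 0.416, adjusted p = 1). Whether the lines differ in this response was not tested.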

How the results depend on the processing

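Counts below are narrow clusters called in the order 3, 6, 12, 18, 48 and 72 h, late against early, DHT in LNCaP, DHT in BicR, difference in DHT response, and BicR against LNCaP. They were 0, 0, 1, 8, 6, 9, 19, 1, 6, 0 and 19 in the fits reported, where 0, 0, 0.231, 0.988, 1.89, 2.5, 6.32, 0.128, 3.38, 0 and 11% of all features were called. DESeq2 gave 1, 3, 1, 47, 8, 7, 35, 1, 6, 0 and 11, against 0.05, 0.469, 0.563, 2.98, 2.39, 2.96, 9.27, 0.406, 3.3, 0.0301 and 6.82% of all. Without the filter they were 0, 1, 1, 10, 8, 12, 54, 1, 6, 0 and 19, against 0, 0.0922, 0.271, 1.23, 1.68, 2.29, 5.4, 0.128, 3.38, 0 and 11% of all. At a width of at most 30 bp they were 0, 0, 0, 1, 2, 3, 6, 0, 2, 0 and 3, and at most 100 bp 0, 0, 2, 13, 24, 50, 63, 2, 29, 0 and 114, because the set itself is smaller or larger. With the replicate block, which exists for the R1881 series alone, they were 4, 78, 12, 179, 38, 69 and 26, against 0.288, 6.61, 1.98, 13, 8.54, 12.2 and 8.32% of all, and the 12 named R1881 calls kept direction and call under it. Without replicate 2 of 6 and 18 h they were 0, 0, 1, 7, 13, 27 and 27, against 0, 0, 0.558, 0.224, 3.68, 5.52 and 9.58% of all, and without the 4 shallowest libraries 0, 54, 2, 49, 11, 27 and 46, against 0.00604, 7.91, 0.193, 8.44, 3.05, 4.93 and 6.61% of all. Without the term for time the second table gave 0, 2, 0 and 3, against 0.0376, 1.35, 0 and 3.48% of all, and without BicR with both drugs at 6 h 1, 10, 0 and 27, against 0.469, 5.72, 0.0151 and 15.4%. With the clusters that reach 10 RPM outside the 2 shallowest libraries alone, a choice made after seeing the data, they were 0, 0, 1, 7, 6, 9, 19, 1, 6, 0 and 16. The cause of the differences between these settings was not tested.

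Leaving out 1 library at a time, with a lone sample assumed to vary like the other groups, gave 0 to 0 at 3 h, 0 to 7 at 6 h, 0 to 0 at 12 h, 0 to 9 at 18 h, 0 to 2 at 48 h, 2 to 6 at 72 h, 9 to 27 late against early, 0 to 0 for DHT in LNCaP, 3 to 5 in BicR, 0 to 0 for the difference in response and 2 to 12 between lines. Among 25 named results none was reversed in 241 alternatives, and 63 lost the call, in 20 of the results. Where a count fell when 1 library was left out, fewer of all features were called as well. The median level was 1.56 RPM at most 30 bp, 4.10 RPM at most 100 bp, 3.03 CPM of the table's own sum and 6.82 RPM for clusters that reach 10 RPM outside the 2 shallowest libraries. The mean share of tags was 2.76%, 0.467% at most 30 bp and 7.87% at most 100 bp. With DESeq2, over clusters passed by the same filter, the median log2 change of narrow clusters was 0.84 at 6 h, 1.05 at 18 h and -0.55 late against early. In the 2 shallowest libraries 3 tags are 17.1 and 19.45 RPM, above the median level of narrow clusters.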
